A study of Homo sapiens with 8 samples.

Results

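The 10 genes SRSF1, SRSF2, SRSF3, SRSF4, SRSF5, SRSF6, SRSF7, SRSF11, TRA2A and TRA2B encode serine- and arginine-rich splicing factors (SR proteins) and the SR-like transformer proteins. They were followed by name through both deposited splicing tables, and were 10 of the 11412 genes listed there. Together they held 99 local splicing variations (LSVs). An LSV is 1 exon with all junctions, and any retained intron, that leave or enter it on 1 side. Of these LSVs 96 were in the table of PMA-treated cells, 98 in that of unstimulated cells and 95 in both with the same junctions.

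Strand-specific libraries of polyadenylated RNA were made from JSL1 cells, 1 clone of the human T cell leukaemia line Jurkat. There were 4 groups of 2 libraries each. PMA-treated CELF2-depleted and PMA-treated control cells received 20 ng/mL of PMA for 48 hours, and unstimulated CELF2-depleted and unstimulated control cells received none. PMA, a phorbol ester, switches on protein kinase C, and CELF2 is an RNA-binding splicing regulator. Depletion came from doxycycline-inducible hairpins integrated with lentivirus. The sources used here do not say whether control cells carried a control hairpin or received doxycycline, nor whether the duplicates are separate cultures. All groups share the genotype of the clone.

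SR proteins bind exonic sequences through RNA recognition motifs and recruit the spliceosome through their RS domains. Most genes of the family carry a conserved poison exon, a cassette exon or retained region whose use puts a stop codon ahead of the last exon junctions, so that the RNA is a substrate of nonsense-mediated decay instead of making full-length protein. Several members raise the use of their own poison exon when the protein is abundant. In T cells, SR proteins are known regulators of the variable exons of CD45.

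Poison exons are given with the bases that lead from their first base to the stop codon in frame, since this is what makes a transcript that includes them a decay substrate. Sequences are those of GENCODE 29 decay transcripts (build GRCh38), in the sense of the gene and 5′ to 3′, with the stop codon in capitals:
SRSF3, 456-nt exon at chr6:36599821-36600276 (+): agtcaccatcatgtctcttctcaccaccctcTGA
SRSF4, 175-nt exon at chr1:29165890-29166064 (-): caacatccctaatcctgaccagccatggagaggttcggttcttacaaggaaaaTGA
SRSF5, 1030-nt exon at chr14:69769511-69770540 (+): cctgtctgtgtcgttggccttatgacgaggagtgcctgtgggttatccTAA
SRSF6, 268-nt exon at chr20:43459153-43459420 (+): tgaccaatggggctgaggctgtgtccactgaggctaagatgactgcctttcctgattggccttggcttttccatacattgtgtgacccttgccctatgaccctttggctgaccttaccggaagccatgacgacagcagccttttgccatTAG
SRSF7, 449-nt exon at chr2:38748898-38749346 (-): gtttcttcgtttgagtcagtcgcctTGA
SRSF11, 117-nt exon at chr1:70231859-70231975 (+): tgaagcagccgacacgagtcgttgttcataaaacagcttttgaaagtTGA
TRA2B, 276-nt exon at chr3:185931577-185931852 (-): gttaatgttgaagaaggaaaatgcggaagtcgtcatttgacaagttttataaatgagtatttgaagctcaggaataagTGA

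The stop codon began at base 26 of the exon in SRSF7, 32 in SRSF3, 48 in SRSF11, 49 in SRSF5, 54 in SRSF4, 79 in TRA2B and 150 in SRSF6. It followed 38 codons in TRA2B and 124 to 160 codons in the other 6 transcripts, and lay 270 to 1090 nt ahead of the last exon junction. The hexamer GAAGAA, a known binding sequence of TRA2 proteins, was searched on the sense strand of the whole exon, with overlaps counted. It occurred 3 times in the TRA2B exon, where 4.66% of 7429 internal GENCODE exons within 10 percent of its length held it at least 2 times. The TRA2A exon of 301 nt, which GENCODE places in a coding transcript, held it 4 times, against 5.79% of exons of like length with at least 2. SRSF7's exon held it 1 time and those of SRSF3, SRSF4, SRSF5, SRSF6 and SRSF11 did not hold it.

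The values below are the authors' pooled shares, 1 per group: for each junction or retained intron, the expected percent of its LSV's reads (percent spliced in). They run from 2.5% to 97.5%, so a share of 2.5% stands for little or no use. Without a value per library there is no spread between libraries, and the number of reads behind a share is unknown. Each share averages over the cells of a culture, so more cells with an isoform and more of it per cell cannot be told apart. It is taken from the RNA present, so a difference in splicing and a difference in decay cannot be told apart either. Words such as used, entered or joined refer to these shares alone. The authors' posterior probability that a share changed by at least 20 points on depletion is the measure of error given, and an LSV was called where this was 0.95 or more in any junction. For PMA, which no deposited table compares, differences between the tables are described by size, with 10 points or more counted as a difference. A spread of method comes from junctions of all genes that are listed in 2 LSVs, one at each end. In 9117 such junctions the PMA difference in control cells disagreed between the ends by a median of 3.5 points and by 17.0 points at the 95th percentile. In the tables, on both strands, a source LSV holds junctions that run from its exon to higher coordinates and a target LSV those that come from lower ones. Positions of junctions and introns are in hg19, as in the tables.

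Junctions were sorted by their place in GENCODE 29. Of the members' entries (1 junction in 1 LSV) in both tables, 66 were junctions of the principal coding transcript and 45 occurred in decay transcripts but in no coding one, and 50 entries were retained introns. Of the principal entries 38 stood at 90% or more in all groups, and of all 297 entries 126 were at a limit of the scale in all groups. The T cell line showed LSVs in 11 of 13 T cell marker genes, in 1 of 5 B cell and in at most 1 of 6 myeloid ones (CD2 and CD28 were not listed). CELF2 itself had 3 of 16 LSVs called with PMA and 0 of 11 without. The tables hold no expression values, so neither the depletion nor the members' RNA levels could be read from them.

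With PMA, control cells had lower shares of several principal junctions of the members than unstimulated control cells did. Fewer such differences appeared between PMA-treated and unstimulated CELF2-depleted cells. Of 66 principal entries, 15 were lower by 10 points or more with PMA in control cells (22.7%), in SRSF1, SRSF3, SRSF5, SRSF6, SRSF11, TRA2A and TRA2B, where over all genes 5.21% were. None was higher (over all genes 3.33% were). In depleted cells 3 were lower (4.55%, over all genes 4.74%) and 2 were higher (3.03%, over all genes 2.82%). The median difference was 0.0 points in both for the members and for all genes. On depletion with PMA, 12 principal entries were higher (18.2%, over all genes 5.05%), in SRSF1, SRSF3, SRSF5, SRSF6, SRSF11 and TRA2A, and 2 were lower, both in SRSF7 (over all genes 6.02%). On depletion without PMA none was higher and 2 were lower, in SRSF4 and SRSF11 (over all genes 3.72% and 4.38%). Many junctions are entered once at each end, so entries are not independent. With 1 entry per junction, the mean of its LSVs, 7 of 46 were lower with PMA in control cells (15.2%, over all genes 4.5%). In depleted cells 1 of 46 was (2.17%, over all genes 4.11%). On depletion with PMA 6 of 46 were higher (13.0%, over all genes 4.39%). The PMA difference of control cells and the depletion difference with PMA share the group of PMA-treated control cells, so a shift in that 1 group and a response of the genes cannot be told apart from these values. Among principal entries with a mean share under 90% over the groups, where a decrease has room, 14 of 26 (53.8%) were lower with PMA in control cells, against 16.1% over all genes, and 3 of 26 (11.5%) in depleted cells, against 14.8%. Of the 95 LSVs 76 carry the authors' flag for de novo junctions. Every member LSV with a retained intron carries it, also where its other junctions match GENCODE. The flag is thus not limited to new splice junctions, and leaving flagged LSVs out removes all those with a retained intron. Without them 2 of 18 principal entries were lower with PMA in control cells (11.1%, over all genes 4.66%). On depletion with PMA 1 of 18 was higher (5.56%, over all genes 4.77%).

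**Figure D1:**
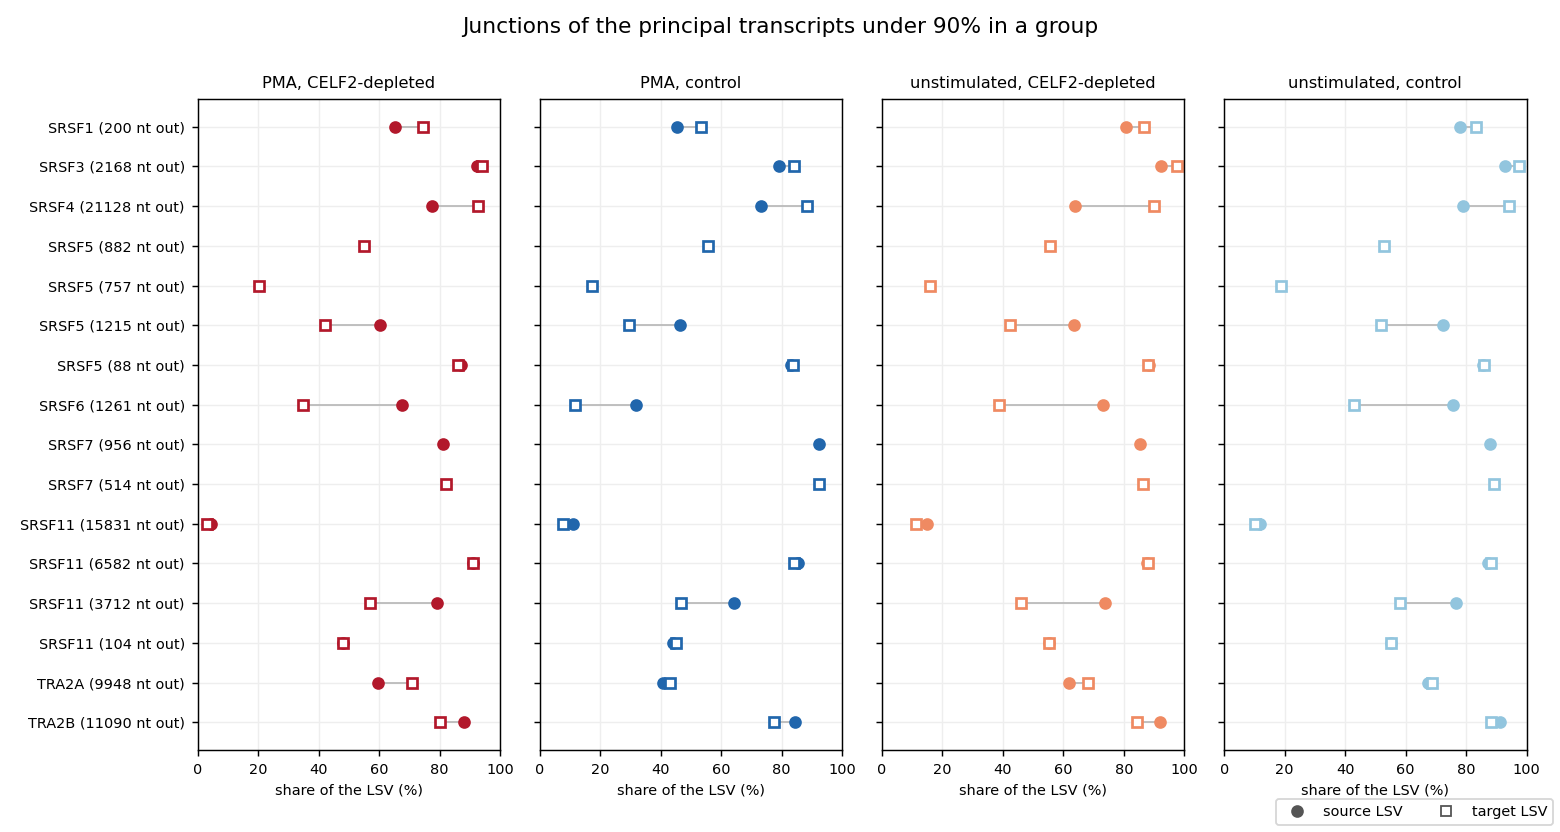
Share of each principal junction that stood under 90% in a group, by member and by the length it splices out (nt), with 1 panel per group. Filled circles are source LSVs and open squares target LSVs, each 1 pooled value, joined where both hold the junction. In PMA-treated control cells the SRSF6 junction stood at 31.9% and 11.5% and the TRA2A junction at 40.9% and 42.9%, below their values in the other groups.

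Junctions of decay transcripts were more often higher than lower with PMA. In control cells 12 of 45 such entries, of 7 distinct junctions, were higher with PMA (26.7%, over all genes 4.09%) and 2 were lower (over all genes 1.82%). In depleted cells 7, of 4 distinct junctions, were higher with PMA (15.6%, over all genes 2.99%) and 1 was lower (over all genes 1.93%). Percents with 1 entry per junction were not computed for this class. The shares of an LSV add up to its whole, so a higher decay junction and a lower principal junction of the same LSV are not separate results. In other LSVs the lower share was a retained intron, as in SRSF1 and SRSF4 below. In depleted cells the higher decay entries all lay in LSVs whose retained intron was lower with PMA. Depletion with PMA left 5 lower (11.1%, over all genes 4.14%) and 2 higher (over all genes 2.58%), and depletion without PMA 2 lower and 4 higher (over all genes 2.63% and 2.41%). Among 50 retained intron entries, PMA went with 7 higher and 8 lower in control cells (over all genes 4.95% and 4.08%) and with 2 higher and 9 lower in depleted cells (over all genes 3.92% and 4.37%). On depletion 8 intron entries were lower and 0 higher with PMA (over all genes 5.56% and 6.82%), and 3 lower and 4 higher without it (over all genes 3.39% and 5.5%). The median over the intron entries on depletion with PMA was -3.9 points, and 0.0 over all genes.

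**Figure D2:**
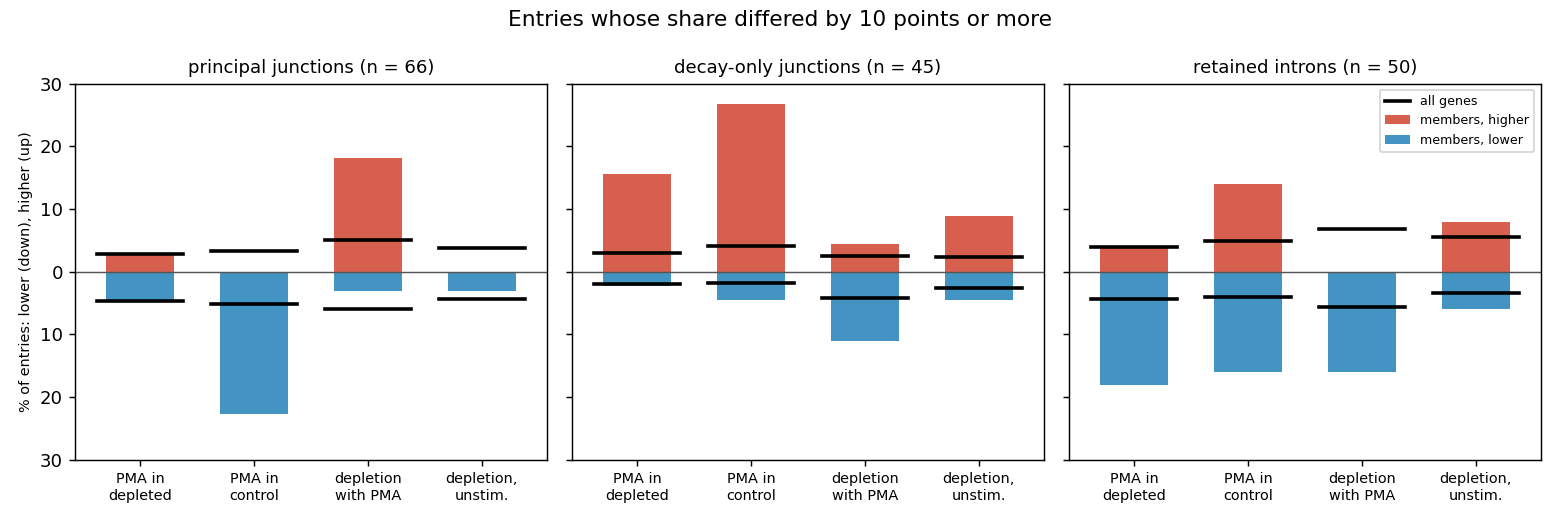
Percent of the members' entries whose share was higher (bars up) or lower (bars down) by 10 points or more, for 4 comparisons: PMA minus unstimulated in depleted and in control cells, and depleted minus control with PMA and unstimulated. Black lines give the same percent over all genes. Principal junctions were lower in 22.7% of entries for PMA in control cells and higher in 18.2% for depletion with PMA.

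By LSV, a share differed by 10 points or more with PMA in 15 of 95 LSVs in depleted cells (15.8%, over all genes 9.38%) and in 27 in control cells (28.4%, over all genes 10.3%). Without LSVs flagged for de novo junctions, and so without those that hold a retained intron, the percent in control cells was 10.5%, and 9.08% over all genes. On depletion it did so in 21 with PMA (22.1%, over all genes 13.2%) and in 11 without (11.6%, over all genes 9.82%). The authors' posterior probability called fewer. With PMA, 3 of 96 LSVs were called on depletion (3.12%, over all genes 1.87%), 2 in SRSF6 and 1 in TRA2A. Without PMA 1 of 98 was called (1.02%, over all genes 0.985%), in TRA2A. The called genes were thus 2 of 10 with PMA, where 10.6% of all genes had a called LSV, and 1 of 10 without, where 6.21% had.

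SRSF6 gave the widest contrast. SRSF6, SRSF5 and SRSF4 are closely related SR proteins with a second, pseudo-RNA recognition motif. The SRSF6 junction chr20:42087149-42088411, which skips the poison exon, took 67.7% of its source LSV in depleted and 31.9% in control cells with PMA, and 73.1% in depleted and 75.7% in control cells without PMA. The target LSV gave it 35.0% in depleted and 11.5% in control cells with PMA, and 38.7% in depleted and 42.9% in control cells without. PMA-treated control cells stood apart as low at both ends. In the authors' deposited table, depletion with PMA raised this junction by an expected 36.7 points (posterior 1) in the source LSV and by 24.1 points (posterior 0.979) in the target LSV.

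The 268-nt poison exon of SRSF6 (chr20:42087793-42088060), printed above, was entered in 14.2% of the source LSV in depleted and 43.0% in control cells with PMA, and in 8.6% in depleted and 14.1% in control cells without. The authors' deposited table put the change on depletion with PMA at -29.5 points (posterior 0.997). Its junction out made up 38.2% of the target LSV in depleted and 54.0% in control cells with PMA, and 19.9% in depleted and 29.5% in control cells without. At both ends the exon's share was highest in PMA-treated control cells. Counting only inclusion and skipping, inclusion averaged 34.8% in depleted and 69.9% in control cells with PMA, and 22.2% in depleted and 28.2% in control cells without.

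The introns beside that exon of SRSF6 were retained too. For the 639-nt intron ahead of it, the source LSV gave 18.0% in depleted and 23.5% in control cells with PMA, and 17.6% in depleted and 9.2% in control cells without; in the exon's own LSV it was 70.4% to 87.5% in all groups. The 350-nt intron after it took 31.2% in both depleted and control cells with PMA, and 55.2% in depleted and 41.3% in control cells without, in the exon's source LSV. Seen from the next exon, it took 26.0% in depleted and 34.5% in control cells with PMA, and 40.5% in depleted and 27.3% in control cells without. This intron was thus lower with PMA in depleted cells at both ends, while in control cells the ends differed in sign. In the exon's own LSV its junction out held 67.5% in depleted and 68.3% in control cells with PMA, and 43.0% in depleted and 58.1% in control cells without. The other 2 introns of SRSF6 listed as retained stayed at 2.9% or less.

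SRSF5 had lower principal use in PMA-treated control cells, below the call. Its junction chr14:70235968-70237184 held 60.4% of the source LSV in depleted and 46.3% in control cells with PMA, and 63.6% in depleted and 72.5% in control cells without. On the target side it held 42.2% in depleted and 29.6% in control cells with PMA, and 42.4% in depleted and 52.0% in control cells without. The authors' deposited table gave 13.7 and 12.4 points for depletion with PMA at the source and target ends, each with a posterior of 0.313.

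The rest of that SRSF5 LSV was split between a poison start and retained introns. The acceptor at chr14:70236228, where the 1030-nt exon printed above begins, is used by decay transcripts and by a coding one. It took 13.1% in depleted and 6.0% in control cells with PMA, and 7.1% in depleted and 2.5% in control cells without, and 26.5%, 9.2%, 13.4% and 6.0% in the same order from the acceptor's side. It was thus highest in PMA-treated depleted cells. The 127-nt intron before it took 26.4% in depleted and 48.2% in control cells with PMA, and 30.1% in depleted and 25.8% in control cells without, in the source LSV (posterior 0.747 with PMA in the authors' deposited table). From the acceptor's side the intron took 73.5% in depleted and 90.8% in control cells with PMA, and 86.6% in depleted and 94.0% in control cells without. The 405-nt intron took 53.0% in depleted and 68.2% in control cells with PMA, and 56.2% in depleted and 46.3% in control cells without, in the target LSV; in its source LSV it was at 89.5% to 97.0%. Both introns were thus higher in control than in depleted cells with PMA. The first-exon choices of SRSF5 at chr14:70234855 differed little: the main one took 52.7% to 55.5% over the groups.

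SRSF4 differed in unstimulated depleted cells instead. Its first-intron junction chr1:29487029-29508158 held 77.4% of the source LSV in depleted and 73.2% in control cells with PMA, and 63.7% in depleted and 79.1% in control cells without. On the target side it held 92.7% in depleted and 88.2% in control cells with PMA, and 89.8% in depleted and 94.1% in control cells without. The junction chr1:29487029-29492402 joins the 175-nt poison exon printed above, part of a chain of decay exons in that intron, to the next coding exon. It held 21.8% in depleted and 24.8% in control cells with PMA, and 34.9% in depleted and 20.2% in control cells without. In the authors' deposited table, the changes without PMA were -15.4 points (posterior 0.309) for the principal junction and 14.6 points (posterior 0.252) for the poison one. Unstimulated depleted cells were thus low in the principal and high in the poison junction at the source end, and at the target end the principal junction differed by -4.3 points. From the first exon into the chain, the junction chr1:29495150-29508158 held 7.3% in depleted and 11.8% in control cells with PMA, and 10.2% in depleted and 5.9% in control cells without.

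Within the chain of SRSF4, the 664-nt intron beside the 175-nt exon was lower with PMA. It held 33.9% in depleted and 41.2% in control cells with PMA, and 53.9% in depleted and 57.8% in control cells without, in the source LSV. In the target LSV it held 25.6% in depleted and 33.9% in control cells with PMA, and 47.7% in depleted and 46.6% in control cells without. Both kinds of cells thus had less of it with PMA at both ends. Its splicing junction held 66.1% in depleted and 58.8% in control cells with PMA, and 46.1% in depleted and 42.2% in control cells without, in the source LSV, and 73.6%, 65.4%, 51.7% and 52.5% in the target LSV in the same order. From the 175-nt exon, a junction to chr1:29487307 with no match in GENCODE held 3.0% in depleted and 13.1% in control cells with PMA, and 2.5% in depleted and 3.7% in control cells without, beside 96.2%, 81.6%, 97.5% and 92.3% for the annotated one in the same order. The other cassette exons of SRSF4 stayed near the limits of the scale. The 90-nt principal exon was included at 93.0% to 97.5% in PMA-treated and 90.4% to 97.3% in unstimulated cells over both ends. The 228-nt and 195-nt decay exons stood at 6.8% or less, and the junction that skips the 90-nt exon held at most 9.5%. The 215-nt coding exon was read only against a longer skip, at 2.5% to 9.5% at one end and 97.5% at the other.

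SRSF1, a founding member of the family with a second pseudo-RNA recognition motif, is known to limit its own RNA through alternative splicing of its 3′ untranslated region. The principal junction chr17:56082961-56083162 held 65.2% of the source LSV in depleted and 45.5% in control cells with PMA, and 80.8% in depleted and 78.0% in control cells without. Seen from the target exon it held 74.5% in depleted and 53.4% in control cells with PMA, and 86.5% in depleted and 83.4% in control cells without. It was lower with PMA in both kinds of cells and lowest in control cells. The authors' deposited table gave 20.2 points (posterior 0.654) and 21.6 points (posterior 0.712) on depletion with PMA, below the call.

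The 131-nt intron of SRSF1 at the same place mirrored the junction. It held 34.7% in depleted and 54.3% in control cells with PMA, and 18.8% in depleted and 21.8% in control cells without, at the source end. At the target end it held 25.4% in depleted and 46.3% in control cells with PMA, and 13.2% in depleted and 16.4% in control cells without. Nearer the gene's end, the splice chr17:56081362-56082284, listed in decay transcripts, held 41.8% in depleted and 47.3% in control cells with PMA, and 30.5% in depleted and 22.8% in control cells without, in the source LSV. From the target side it held 64.3% in depleted and 63.3% in control cells with PMA, and 48.3% in depleted and 34.3% in control cells without. It was higher with PMA in both kinds of cells at both ends. The 78-nt intron within that region held 57.2% in depleted and 50.4% in control cells with PMA, and 67.0% in depleted and 72.7% in control cells without, at the source end. At the target end it held 25.0% in depleted and 28.0% in control cells with PMA, and 44.0% in depleted and 52.3% in control cells without. The other 3 stretches of SRSF1 listed as introns stood at 91.4% or more in all groups. Their LSVs list no principal junction that removes them.

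SRSF2, SRSF3 and SRSF7 are members with 1 RNA recognition motif. SRSF2, which binds both C- and G-rich exonic sequences, had 0 of 5 LSVs with a difference of 10 points in any comparison. The splice chr17:74731240-74731854, listed in decay transcripts, held 22.5% in depleted and 17.5% in control cells with PMA, and 22.7% in depleted and 22.0% in control cells without, in the source LSV. From the target side it held 40.9% in depleted and 34.1% in control cells with PMA, and 40.6% in depleted and 40.4% in control cells without. Its 459-nt intron held 75.8% in depleted and 81.7% in control cells with PMA, and 76.5% in depleted and 77.4% in control cells without, at the source end, and 97.2% or more at the other. The 110-nt intron held 59.1% in depleted and 65.9% in control cells with PMA, and 59.4% in depleted and 59.6% in control cells without. PMA-treated control cells differed from the other groups by under 10 points here. In the authors' deposited table the posterior on depletion with PMA was 0.0314 or less.

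For SRSF3, the smallest SR protein, the poison exon was highest in PMA-treated control cells in the LSVs that can skip it. The 456-nt exon (chr6:36567598-36568053), printed above, was entered in 2.9% of the source LSV in depleted and 11.0% in control cells with PMA, and left in 6.0% of the target LSV in depleted and 16.0% in control cells with PMA. Without PMA all 4 of these values were at 2.5%. The principal junction chr6:36566760-36568929 held 92.4% in depleted and 79.0% in control cells with PMA, and 92.4% in depleted and 92.8% in control cells without, at the source end. At the target end it held 94.0% in depleted and 84.0% in control cells with PMA, and 97.5% in both kinds of cells without. PMA-treated control cells were thus the low group, and the posterior was 0.0339 or less in the authors' deposited table with PMA. The 837-nt intron before the exon held 2.5% in depleted and 10.3% in control cells with PMA, and 6.3% in depleted and 2.6% in control cells without, at the source end. From the exon's side it held 39.3% in depleted and 40.4% in control cells with PMA, and 58.3% in depleted and 48.0% in control cells without. The junction into the exon made up the remainder there, with 60.7% in depleted and 59.6% in control cells with PMA, and 41.7% in depleted and 52.0% in control cells without.

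SRSF7, which shares with SRSF3 a role in linking splicing to RNA export, went the opposite way. Its 36-nt exon (chr2:38973286-38973321), a part of the principal transcript, was included in 81.1% of the source LSV in depleted and 92.2% in control cells with PMA, and in 85.3% in depleted and 87.9% in control cells without. At the target end it was 82.2% in depleted and 92.4% in control cells with PMA, and 86.3% in depleted and 89.3% in control cells without. The exon was highest in PMA-treated control cells, in both LSVs. In the authors' deposited table the posterior with PMA was 0.0174 or less. The 449-nt poison exon printed above stayed at 4.6% or less, and the decay exons of 276 and 69 nt at 2.5% in all groups. Of a pair of donors 9 nt apart, at chr2:38975189 and chr2:38975198, the principal one held 91.6% to 92.9%.

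SRSF11, an SR-like protein with 1 RNA recognition motif, held the most LSVs, 21 in both tables, of which 8 differed by 10 points or more with PMA in control cells and 2 in depleted cells. The junction chr1:70694238-70697951 held 79.1% in depleted and 64.3% in control cells with PMA, and 73.6% in depleted and 76.7% in control cells without, in the source LSV. The target LSV gave 57.0% in depleted and 46.6% in control cells with PMA, and 46.1% in depleted and 58.3% in control cells without. It was low in PMA-treated control cells at both ends, and in unstimulated depleted cells at the target end alone.

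The 117-nt poison exon of SRSF11 (chr1:70697542-70697658), printed above, lies in that span. It was entered in 9.9% of the source LSV in depleted and 21.8% in control cells with PMA, and in 12.4% in depleted and 9.7% in control cells without. The junction out of it held 25.0% in depleted and 28.5% in control cells with PMA, and 28.8% in depleted and 18.2% in control cells without. Looked at from the exon itself, the junction in held 20.3% in depleted and 30.8% in control cells with PMA, and 17.7% in depleted and 18.4% in control cells without. Entry was thus highest in PMA-treated control cells in both LSVs that hold it. From the decay exon of 109 nt ahead of it, the 117-nt exon was entered in 95.5% in depleted and 79.7% in control cells with PMA, and 90.2% in depleted and 96.8% in control cells without. A donor 9 nt before it, with no match in GENCODE, took 3.9% in depleted and 17.9% in control cells with PMA, and 5.6% in depleted and 2.5% in control cells without. The 109-nt exon itself held 11.7% or less of any LSV that skips it.

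Introns of SRSF11 were widely listed. The 476-nt intron (chr1:70696302-70696777) took 55.2% in depleted and 76.1% in control cells with PMA, and 46.4% in depleted and 71.1% in control cells without, at the source end. At the target end it took 75.1% in depleted and 83.4% in control cells with PMA, and 69.7% in depleted and 82.3% in control cells without. It was lower in depleted cells in both states at both ends, and the authors' deposited table gave -25.3 points without PMA (posterior 0.914) and -20.5 points with PMA (posterior 0.699) at the source end. The junction that removes it took 44.8% in depleted and 23.9% in control cells with PMA, and 53.6% in depleted and 28.9% in control cells without, at the source end, and 19.8%, 8.2%, 24.5% and 9.1% at the target end in the same order. The 288-nt intron took 67.9% in depleted and 59.5% in control cells with PMA, and 71.6% in depleted and 70.2% in control cells without.

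The 292-nt intron of SRSF11 took 36.5% in depleted and 41.6% in control cells with PMA, and 44.3% in depleted and 54.8% in control cells without, at the source end, where its junction held the remainder, and 17.8%, 24.8%, 24.9% and 23.1% at the target end in the same order. The 61-nt intron took 28.6% in depleted and 34.7% in control cells with PMA, and 27.2% in depleted and 16.6% in control cells without, and the coding junction into that exon 66.6%, 56.6%, 61.5% and 73.1% in the same order. Unstimulated control cells stood apart for the 61-nt intron, and for the 292-nt intron at its source end. The 482-nt intron stood at 2.5% to 7.3% at one end and 84.3% to 97.3% at the other, and in the LSVs of both tables the 718-nt intron stood at 8.0% to 13.4% and the 5623-nt intron at 7.5% to 12.9%. From the exon between these introns, which had LSVs in the unstimulated table alone, the 718-nt intron took 84.1% in depleted and 88.8% in control cells, and the 5623-nt intron 88.3% in depleted and 80.7% in control cells. The acceptors 3 nt apart at chr1:70716291 gave the upstream, principal one 48.1% in depleted and 43.9% in control cells with PMA, and 55.3% in depleted and 55.2% in control cells without in the source LSV, and 48.1%, 44.9%, 55.2% and 55.2% in the target LSV in the same order. This choice was lower with PMA in both kinds of cells. The first cassette exon was joined at the acceptor of its 225-nt form in 81.6% to 90.9% of the source LSV and 56.6% to 73.1% of the exon's own LSV, while in the source LSV the acceptor 3 nt ahead held 4.3% in depleted and 11.1% in control cells with PMA, and 14.9% in depleted and 11.7% in control cells without. The 33-nt exons stood at 5.6% or less.

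TRA2A and TRA2B, SR-like activators that bind GAA-rich exonic sequences, have extra exons in the long intron after the first exon. In TRA2A the principal junction chr7:23561459-23571408 held 59.6% of the source LSV in depleted and 40.9% in control cells with PMA, and 61.7% in depleted and 67.5% in control cells without. Seen from the first exon it held 70.8% in depleted and 42.9% in control cells with PMA, and 68.1% in depleted and 68.8% in control cells without. PMA-treated control cells were low at both ends. The authors' deposited table gave 28.6 points on depletion with PMA at the target end (posterior 0.989), which was the call, and 19 points at the source end (posterior 0.606).

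The LSV called without PMA belongs to an alternative exon of TRA2A that ends at chr7:23562051. In the authors' deposited table its junction chr7:23562051-23570800, from a 90-nt exon, changed by 25.2 points (posterior 0.961), with 27.3% in depleted and 2.8% in control cells. With PMA the same junction held 28.3% in depleted and 28.0% in control cells. Unstimulated control cells were thus the group apart. Its alternative chr7:23562051-23571408 held 69.8% in depleted and 67.9% in control cells with PMA, and 71.6% in depleted and 96.5% in control cells without. In the first exon's LSV, the 90-nt exon's junction to the first exon held 9.9% in depleted and 21.4% in control cells with PMA, and 9.9% in depleted and 7.4% in control cells without. Unstimulated control cells were lowest there too, with 2.5 points more in unstimulated depleted cells, and PMA-treated control cells were highest. These LSVs hold different sets of junctions, so their shares are not on the same scale.

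The alternative exon of TRA2A has 3 donors, which give lengths of 312, 301 and 79 nt. The donor of the 312-nt form was joined to the next principal exon in 9.8% in depleted and 15.1% in control cells with PMA, and 5.9% in depleted and 8.2% in control cells without. The shared acceptor's junction to the first exon held 16.3% in depleted and 22.1% in control cells with PMA, and 10.9% in depleted and 17.0% in control cells without. In these LSVs both junctions were highest in PMA-treated control cells, and the 301-nt and 79-nt forms held 4.0% or less. From the exon itself, the donor of the 312-nt form held 25.7% in depleted and 22.5% in control cells with PMA, and 16.1% in depleted and 18.0% in control cells without, and that of the 301-nt form 2.5% to 7.5%. The 280-nt intron beside it took 24.2% in depleted and 34.4% in control cells with PMA, and 24.8% in depleted and 18.5% in control cells without, at the source end, and 63.9%, 67.5%, 77.7% and 75.8% at the target end in the same order. The 146-nt intron took 34.1% in depleted and 41.2% in control cells with PMA, and 47.4% in depleted and 51.2% in control cells without, at the source end. Its junction took the remainder there, and at the target end the intron stood at 97.2% or more. The 108-nt intron took 2.5% in depleted and 13.5% in control cells with PMA, and 11.4% in depleted and 7.5% in control cells without. The 189-nt principal exon stood at 97.5% in all groups.

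TRA2B joined its 276-nt poison exon (chr3:185649365-185649640, printed above) at higher shares with PMA in both kinds of cells. The differences were 3.3 and 4.2 points in depleted and 6.7 and 12.6 points in control cells. It was joined in 11.4% of the source LSV in depleted and 14.9% in control cells with PMA, and in 8.1% in depleted and 8.2% in control cells without. The other junction held 15.3% in depleted and 21.5% in control cells with PMA, and 11.1% in depleted and 8.9% in control cells without. A coding transcript also holds that junction, so its share is not specific to the poison exon. The principal junction chr3:185644522-185655613 held 88.2% in depleted and 84.5% in control cells with PMA, and 91.9% in depleted and 91.3% in control cells without, at the source end. At the target end it held 80.1% in depleted and 77.5% in control cells with PMA, and 84.3% in depleted and 88.2% in control cells without. Differences of 10 points were reached in 1 LSV, at the target end in control cells, and with PMA the posterior on depletion was 0.000747 or less in the authors' deposited table. Its principal exon of 60 nt stood at 93.9% or more at both ends and that of 134 nt at 97.5% at one end and 77.5% to 88.2% at the other, and the gene had no retained intron listed.

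**Figure D3:**
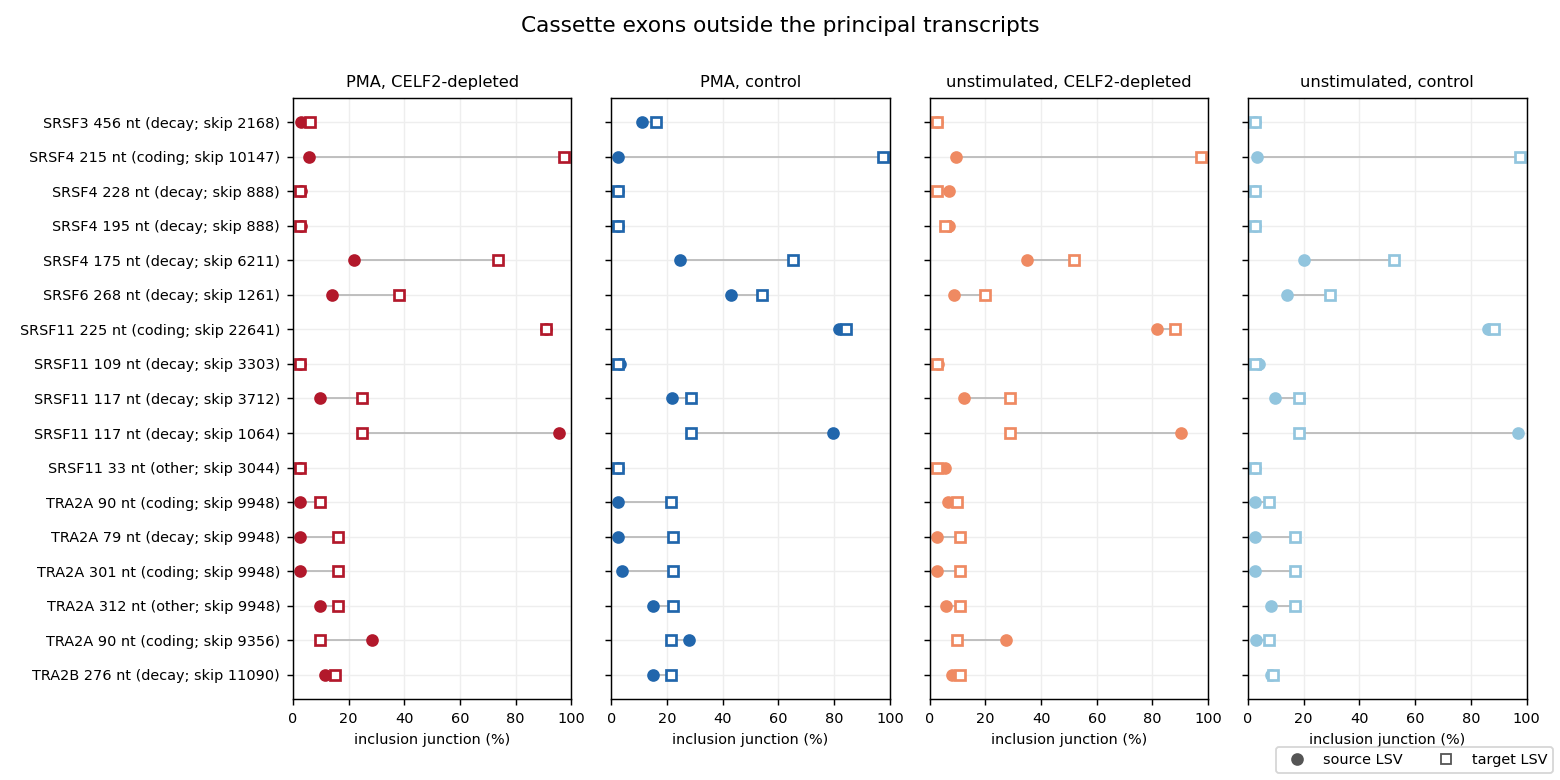
Inclusion junctions of the members' cassette exons that lie outside the principal transcripts and reached 5% at an end, named by length, by GENCODE class and by the length the skipping junction removes (nt), with 1 panel per group. Filled circles are source and open squares target LSVs, in percent of that LSV, 1 pooled value each. The SRSF6 exon stood at 43.0% and 54.0% in PMA-treated control cells, and the wide gaps between both ends of several exons show how far 2 LSVs of 1 exon can differ.

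Across the members, 28 pairings of a cassette exon with a skipping junction were found, of 25 exons in 7 genes, and 13 pairings were of decay transcripts. Averaged over both ends, 4 were higher by 10 points or more with PMA in control cells. These were the poison exons of SRSF3, SRSF6 and SRSF11 and 1 pairing of the 90-nt exon of TRA2A, with the skip to the alternative exon. Against the principal skipping junction that TRA2A exon was higher by 7.0 points. In depleted cells 1 was higher, the poison exon of SRSF6, by 5.6 points at the source and 18.3 points at the target end. In neither kind of cells was a pairing lower. Of 30 introns listed as retained in 9 genes, 23 reached 5% in a group. Averaged over the LSVs that hold them, 5 were lower and 0 higher on depletion with PMA, against 1 lower and 2 higher without. Shares over all genes were not computed for cassette pairings or averaged introns, so these counts have no background beside them.

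**Figure D4:**
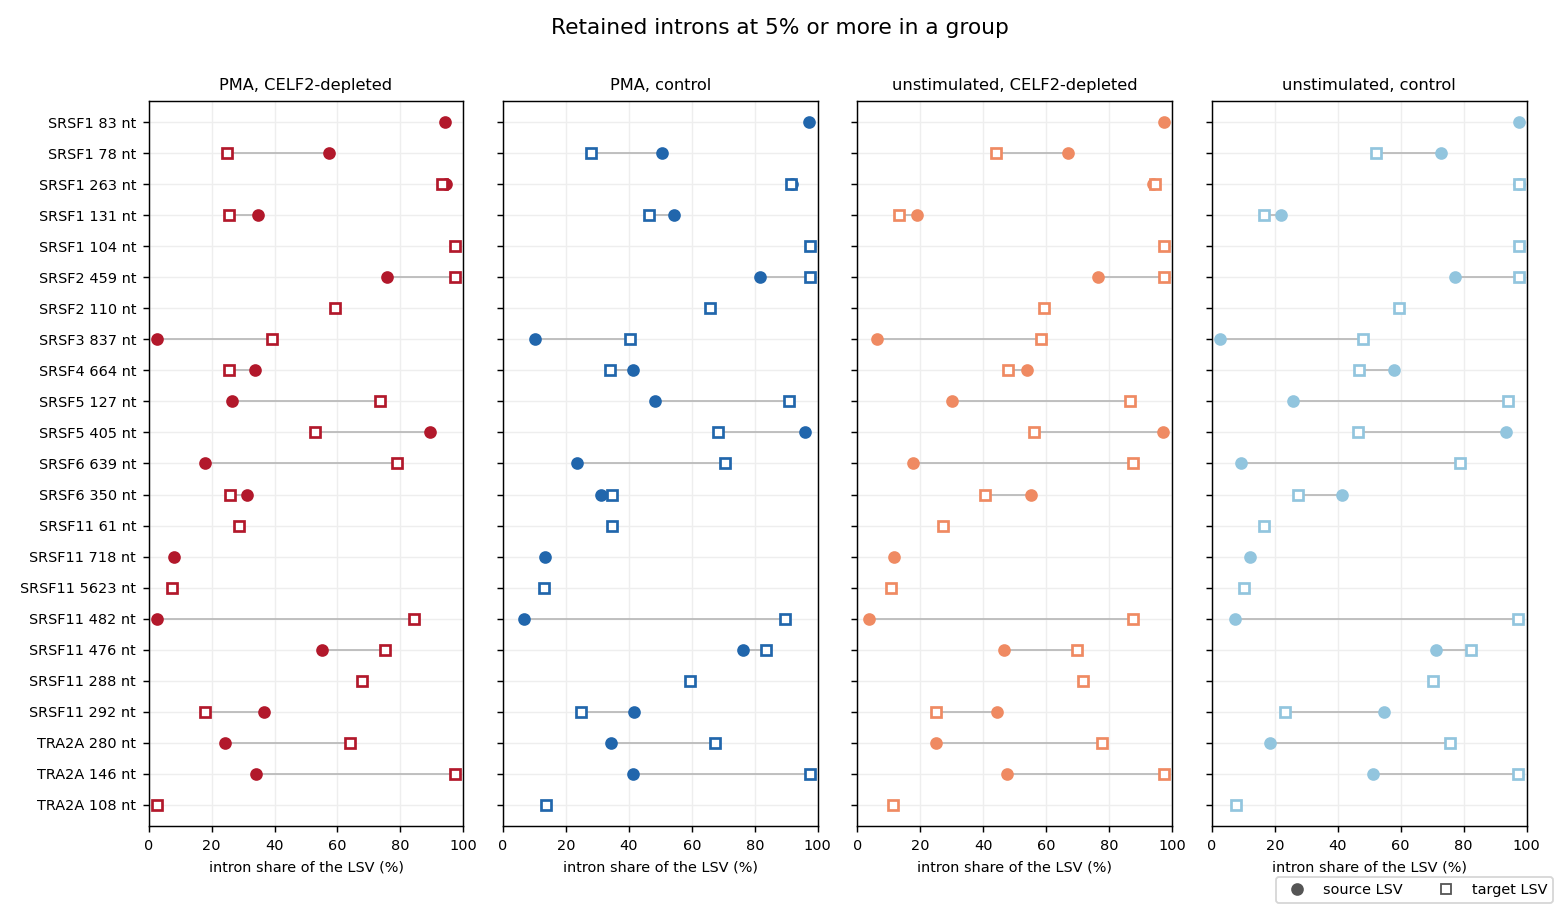
Share of each retained intron at 5% or more in a group, by member and intron length (nt), with 1 panel per group. Filled circles are source and open squares target LSVs, in percent of that LSV, 1 pooled value each. The SRSF1 intron of 131 nt stood at 54.3% and 46.3% in PMA-treated control cells, above its 13.2% to 34.7% in the other groups.

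In the 59 LSVs without a difference of 10 points in any comparison, no share differed by more than 9.7 points. Among 24 names of other SR and SR-related proteins, of which SRSF2IP is an older name of SCAF11, 21 were listed. Depletion with PMA called 8 of their 268 LSVs (2.99%, over all genes 1.87%), in ACIN1, BCLAF1, RBM39 and SREK1, and depletion without PMA 3 of 272 (1.1%, over all genes 0.985%), in SREK1 and SRSF10. In the authors' deposited table a principal junction of BCLAF1, a splicing-linked RS domain protein, held 72.9% in depleted and 29.2% in control cells with PMA, and one of ACIN1, a part of the exon junction complex, 34.6% in depleted and 76.8% in control cells. A principal junction of SREK1, a regulatory SR-like protein, held 39.7% in depleted and 72.3% in control cells with PMA, and 36.4% in depleted and 66.0% in control cells without. RBM39, a U2AF-like factor, retained an intron at 26.9% in depleted and 58.1% in control cells with PMA. SRSF10, an SR protein that represses splicing when dephosphorylated, had a coding junction at 33.5% in depleted and 8.1% in control cells without PMA. The changes went in both directions. Of the list's principal entries, 22 of 228 were lower with PMA in control cells (9.65%, over all genes 5.21%) and 7 were higher, with a median of 0.0 points. All 15 genes of the list of SR protein kinases, import and decay factors were listed, with 2 of 213 LSVs called with PMA (0.939%, over all genes 1.87%), in CLK3 and UPF3A, and 2 of 219 without (0.913%, over all genes 0.985%), in SRPK2 and UPF2. Their principal entries were lower with PMA in control cells in 5.42% of cases, against 5.21% over all genes.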

How the data were processed

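Samples were grouped by the titles in the labels, 4 groups of 2 libraries. RNA was extracted with TRIzol and libraries were TruSeq stranded, per the labels' protocols. STAR 2.5.1b and build hg19 are listed in the submitters' processing notes. The 2 deposited tables, 1 for PMA-treated and 1 for unstimulated cells, hold for each junction the share in each group, expected changes and posterior probabilities, per the file headers, which are those of MAJIQ's VOILA; the sources used here do not give its version, filters or annotation. The values are percentages spliced in, deposited as fractions. Both libraries of a group were pooled by the authors, so no SD, depth or test over libraries could be had, and 0 columns held values per library. How reads shared with processed pseudogenes of SR genes were assigned is also not given.

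Shares were read with Python 3.11.15 and pandas 2.3.3 and joined by gene, LSV and junction (87517 LSVs in both tables). The 2 tables were quantified separately and share no library. Junctions were matched to GENCODE 29 by gene and intron length, without converting positions: 176 of the members' 247 junction entries matched, all of a gene with 1 offset between builds. A junction was principal if an APPRIS principal coding transcript holds it, and decay-only if decay but no coding transcripts do. Reading of the tables was tested on simulated tables. All 10 members are named, with values for each cassette exon, each intron at 5% or more, each called LSV and each LSV with a difference of 10 points. Members and lists were chosen with earlier results of these data known, and the GENCODE classes and the counts by class after values were seen.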

Additional observations from a re-analysis of the deposited data

How the results depend on the processing

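No paired analysis was possible because the tables hold 1 pooled value per group, and for the same reason no library could be left out. Of 56 alternatives for 10 results, 23 stayed within 1.5 times of the value given and 33 did not; the cause was not tested. All alternatives for the principal junctions, inclusion against skipping for cassette exons, the single ends of introns and the other posterior thresholds for other SR genes were chosen after seeing the data.

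Members called without PMA (1.02%) came to 2.04% at a posterior of 0.90, 0.0% at 0.99, 2.04% and 8.16% by an expected change of 20 and 10 points, 2.22% in source and 0.0% in target LSVs, and 0.0% without de novo junctions or with 2-junction LSVs alone. With PMA (3.12%) they came to 1.04% at 0.99, 7.29% and 17.7% by an expected change of 20 and 10 points, and 0.0% without de novo junctions or with 2-junction LSVs alone. LSVs that differed with PMA in depleted cells (15.8%) were 29.5% at 5 points, 3.16% at 20, 0.0% without de novo junctions and 10.3% with 2 junctions. In control cells (28.4%) they were 11.6% at 20 points, 10.5% without de novo junctions and 10.3% with 2 junctions. Over all genes the last 3 were 2.59%, 9.08% and 6.04%. In this section, without de novo junctions means without LSVs that carry that flag (76 of the 95). These include every member LSV with a retained intron. Among the 19 that remain, the members were near the background.

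Principal entries lower with PMA in control cells (22.7%) were 12.1% at 20 points, 11.1% (2 of 18) without de novo junctions and 53.8% with a mean share under 90%. In depleted cells (4.55%) they were 10.6% at 5 points, 0.0% at 20, 0.0% without de novo junctions, 2.86% in target LSVs, 2.17% with 1 entry per junction and 11.5% under 90%. Those higher on depletion with PMA (18.2%) were 6.06% at 20 points, 5.56% (1 of 18) without de novo junctions and 42.3% under 90%. Cassette exons higher with PMA in control cells (4) came to 8 by target LSVs alone. Depth is unknown, so low shares cannot be weighed by reads.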
